A study of Mus musculus with 6 samples.

Results

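Cohesin is the ring-shaped protein complex that holds sister chromatids together, and its 9 subunit genes were described here in STRA8-positive (STRA8+) germ cells with and without the splicing factor gene *Srsf1*. The members were taken by name, as the rows of the deposited gene table whose symbol was *Rec8*, *Rad21*, *Rad21l*, *Stag1*, *Stag2*, *Stag3*, *Smc1a*, *Smc1b* or *Smc3*. All 9 were found among 54532 genes. Total RNA of STRA8+ cells from mouse testes was sequenced in 3 control libraries, whose labelled genotype is Cre alone, and in 3 conditional knockout (cKO) libraries, labelled as *Srsf1* knockout. The labels give neither the age of the mice, nor the promoter that drives Cre, nor whether each library is a separate animal, so the p-values below measure the spread between these libraries only. The title of the series names pairing and synapsis of homologous chromosomes in male meiosis as its subject, and the comparison asked how the subunits of the cohesin axis stood in cells without *Srsf1*.

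A cohesin ring is built from an SMC1 protein, SMC3 and a kleisin, which closes the ring, and a STAG protein binds to the kleisin. Dividing somatic cells and spermatogonia use SMC1A, RAD21 and either STAG1 or STAG2. Germ cells that enter meiosis add the meiosis-specific paralogs SMC1B, the kleisins REC8 and RAD21L, and STAG3, which form the chromosome axes along which homologues synapse, while SMC3 is shared by both kinds of ring.

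Coordinates are those of the deposited table, on GRCm38. *Rec8* (ENSMUSG00000002324) spans chr14:55618037-55625395 on the plus strand, and *Stag2* (ENSMUSG00000025862) spans chrX:42149317-42277185 on the plus strand. *Smc1a* is X-linked as well, and *Rad21* and *Smc1b* are both on chromosome 15. The exons of all 9 in GENCODE M21 add up to exactly the gene length of the table. For *Rec8*, that length is 2935 bases, of which 751 are found only in its 3 retained-intron transcripts and not in its single protein-coding transcript of 20 exons. Aligned coding bases of the paralogs were identical at 70.6% between *Stag1* and *Stag2*, the closest pair, at 63.0% between *Smc1a* and *Smc1b*, at 65.5% between *Rad21* and *Rad21l*, at 59.6% between *Rad21* and *Rec8*, and at 62.2% between *Stag2* and *Stag3*. No 100-base window of any member occurs in another annotated gene, so fragments of one paralog could not be counted on another at that length.

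A short run of letters recurred at the start sites of most members that could be searched. RefSeq windows of 250 bases before to 50 bases after a start site (GRCm38.p6) were available for 7 members, all but *Rad21* and *Stag2*. The letters TCCCGC, which resemble the core bound by E2F factors, were found on either strand in 6 of the 7, but not in *Rad21l*. They were in 20% of all 27025 windows. The longer run TTCCCGCG, chosen after the letters had been seen and overlapping the former, was in 4 of the 7 and in 0.992% of all windows. The matches are printed on the strand of the gene, with the matched letters in capitals, to show that the run stands in meiosis-specific and in general subunits alike, and a match is only a description of letters.

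*Smc1b* at chr15:85131987-85132016, minus strand: aaaagaatttcTTCCCGCGctttttttttt
*Stag3* at chr5:138280495-138280524, plus strand: tatcccgtgccTTCCCGCGtttttttctaa
*Stag1* at chr9:100643421-100643450, plus strand: aaaggccacgtTTCCCGCGccgctgctgcg
*Smc1a* at chrX:152016455-152016477, plus strand, cut by the end of the window: cactgcgctatTTCCCGCGcggg
*Rec8* at chr14:55618116-55618145, plus strand, the shorter run only: gtgtgcacctgaTCCCGCtggagggcgaca

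The sixth match, in *Smc3*, is of the shorter run only, on the opposite strand and at 2 places. Among the 7 members with a window, *Stag3* alone had an E-box, CACGTG (chr5:138280327-138280356, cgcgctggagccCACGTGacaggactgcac), against 7.24% of all windows. *Smc1b* alone of these 7 had CCTCAG or its complement, the letters of the motif ascribed to STRA8, against 26.6% of all windows. CCAAT stood on either strand in 6 of the 7, at 3 places in *Rec8*, and in 37.9% of all windows.

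The targeted gene was checked first. Levels are in FPKM, the number of fragments on a gene divided by its length and by the size of the library. The control libraries held 84.7, 45.2 and 51.9 FPKM of *Srsf1*, in the order of their replicate numbers, and the cKO libraries 5.08, 4.94 and 5.17 FPKM. Its log2 fold change, cKO against control, was -3.29 (SE 0.22, limma adjusted p = 5.6e-05). *Stra8*, the gene that defines the sort, had 222 to 262 FPKM in control and 242 to 313 FPKM in cKO libraries, which overlapped. The germ cell marker *Ddx4* was called lower, from a mean of 159.5 to 134.7 FPKM (log2 fold change -0.24, limma adjusted p = 0.048). The libraries held 14447887 to 17310353 fragments counted on genes. Markers of late stages were present in the control libraries despite the labelled sort, where 10 spermatid markers summed to 2522, 8337 and 2479 FPKM, against 6.01 to 7.36 FPKM in cKO libraries. The sum of 10 pachytene spermatocyte markers was 747 to 899 FPKM in control and 129 to 150 FPKM in cKO libraries, and 9 of them were called lower. The sum of 7 Sertoli cell markers overlapped between the groups (57.4 to 86.2 FPKM in control, 48.3 to 119 FPKM in cKO), and 1 of them (*Rhox5*) was called higher. Markers of Leydig cells (2.95 to 14.0 against 6.34 to 10.7 FPKM), peritubular cells (3.53 to 6.12 against 6.86 to 7.67 FPKM) and macrophages and blood (4.94 to 8.45 against 5.16 to 6.46 FPKM) were low, and no gene of these lists was at 0 in all libraries. The summed markers of the sorted stages overlapped between the groups, at 574 to 611 against 576 to 657 FPKM for 8 genes of differentiating spermatogonia and 862 to 1153 against 888 to 1161 FPKM for 10 genes of early meiotic prophase. Single genes of these lists were called lower, *Dmrtb1* (from a mean of 76.3 to 29.5 FPKM) in the former and *Spo11* (from 18.7 to 8.85 FPKM) and *Mei1* (from 41.4 to 30.5 FPKM) in the latter. The 8 markers of undifferentiated spermatogonia summed to 22.2 to 28.5 FPKM in control and 23.4 to 28.2 FPKM in cKO libraries, and 6 were tested. Of these, *Id4* was called lower (from a mean of 5.24 to 1.55 FPKM) and *Ret* higher (from 1.19 to 2.26 FPKM). The part of late germ cells in the differences below was not tested, and in bulk RNA a loss of cells of one type and less RNA per cell cannot be told apart.

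All 9 members were expressed and tested. In control cells the meiosis-specific *Smc1b* and *Stag3* led, with 159 ± 37.8 and 147 ± 26.9 FPKM (SD, n = 3), and ranked 159 and 176 among the 15451 genes tested. Next came *Smc3* with 77.4 ± 7.67, *Rad21l* with 62.7 ± 13.2 and *Rad21* with 51.5 ± 6.64 FPKM. *Rec8*, with 20.7 ± 2.45, and *Stag1*, with 20.5 ± 1.43 FPKM, followed, and *Stag2* (10.6 ± 0.286) and *Smc1a* (5.65 ± 0.476) were lowest. The ranges of neighbours in this order overlapped between *Smc1b* and *Stag3*, *Smc3* and *Rad21l*, *Rad21l* and *Rad21*, and *Rec8* and *Stag1*, and were apart at the other 4 steps. In cKO cells *Rec8* (13.7 ± 1.38 FPKM) came behind *Stag1* (22.4 ± 2.07) and beside *Stag2* (14.2 ± 0.781), whose ranges overlapped, and the order of the other members by their means was as in control. In cKO cells the ranges of the first 4 members, *Smc1b*, *Stag3*, *Smc3* and *Rad21l*, each overlapped with the next, and *Rad21* was apart from *Stag1*. *Rad21l* had the higher mean than *Rad21* there through cKO replicate 2, since it was above *Rad21* in 1 of 3 cKO libraries, against 2 of 3 control libraries.

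**Figure D1:**
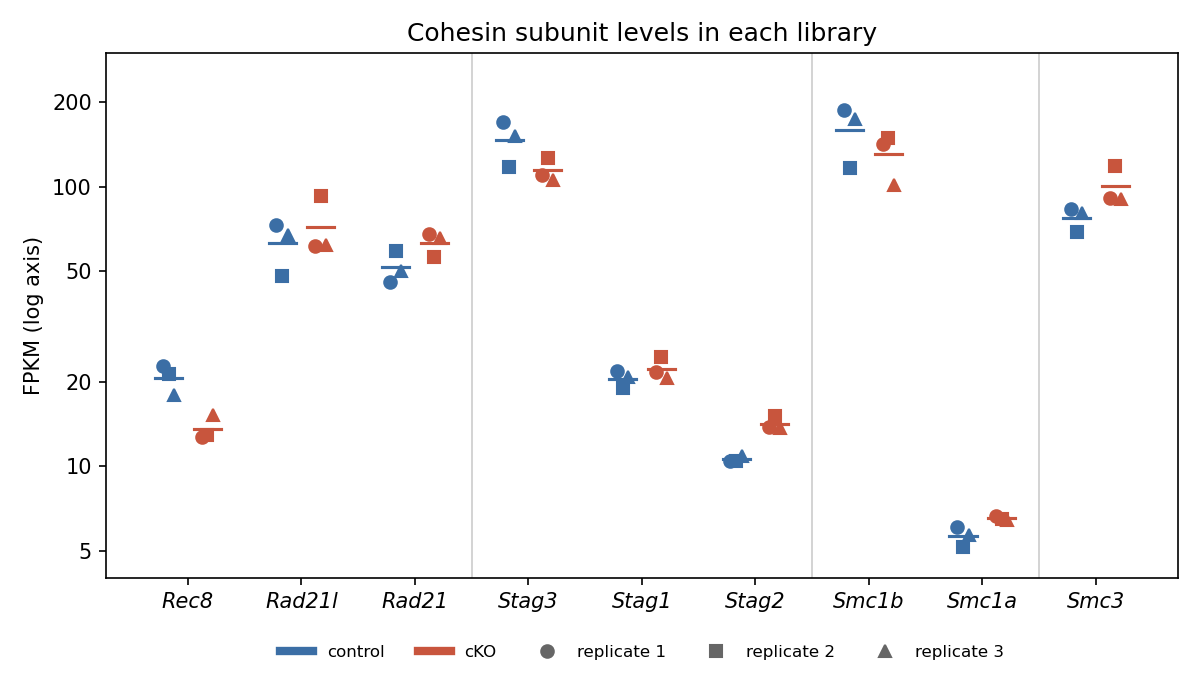
Level of each cohesin subunit gene in FPKM (log axis) in every library, with control in blue and cKO in red, the replicate number as the symbol and the group mean as a short line. *Rec8* lies between 18.0 and 22.8 FPKM in control and between 12.7 and 15.2 FPKM in cKO libraries, *Stag2* is higher in all 3 cKO libraries, and *Rad21l*, *Stag3* and *Smc1b* overlap between the groups.

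Of the 9 subunits, *Rec8* fell and *Stag2* rose in *Srsf1* cKO cells, and the other 7 did not pass the test. Over all genes, 22.2% were called lower and 11.8% higher (3437 and 1821 genes, limma with Benjamini-Hochberg adjustment, threshold 0.05 on the adjusted p), so 1 of 9 in each direction is no more than the background share. In 4 members (*Rec8*, *Stag2*, *Smc1a*, *Smc3*) no cKO value lay within the control range or the reverse, against 50.4% of all genes. The median log2 fold change of the members was 0.18, against -0.0082 over all genes. Scaling matters for such counts. Quantile normalization shifted the median of all genes to 0.21 and turned the split to 5164 genes higher and 2527 lower, and rescaling each library to a fixed sum of FPKM gave 2723 higher and 3013 lower.

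REC8 is the kleisin that keeps sister chromatids together until the meiotic divisions. *Rec8* stood at 22.8, 21.3 and 18.0 FPKM in the control libraries and at 12.7, 13.0 and 15.2 FPKM in the cKO libraries. Every cKO library was below every control library. The log2 fold change was -0.56 (SE 0.11, limma adjusted p = 0.0089), a mean 34.0% below that of the controls, and it rests on 558 to 1102 fragments per library. The table does not resolve transcripts, so whether the fall was in the coding or in the retained-intron transcripts was not tested.

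RAD21L is the second meiosis-specific kleisin, and acts early in prophase. *Rad21l* had 73.1, 47.9 and 66.9 FPKM in control and 61.2, 92.6 and 61.8 FPKM in cKO libraries. The lowest value was that of control replicate 2 and the highest that of cKO replicate 2, and the groups overlapped (log2 fold change 0.19, SE 0.21, limma adjusted p = 0.52, 95% interval -0.31 to 0.69). The difference was -0.0042 without cKO replicate 2 and 0.011 without control replicate 2. *Rad21*, the kleisin of mitotic rings, had 45.8, 58.8 and 50.1 FPKM in control and 67.4, 56.0 and 65.7 FPKM in cKO libraries. Here control replicate 2 was the highest of its group and overlapped with cKO replicate 2 (log2 fold change 0.29, SE 0.12, limma adjusted p = 0.097). *Rad21* passed the threshold without control replicate 2 (log2 fold change 0.39, adjusted p = 0.034), under quantile normalization (0.39, adjusted p = 0.033) and after rescaling to a fixed sum of FPKM (0.39, adjusted p = 0.043). It did not pass in the other 13 alternatives, and the log2 fold change was 0.21 without control replicate 1 (limma adjusted p = 0.25).

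The kleisins can also be read as shares of one pool, which do not depend on the scaling between libraries. *Rec8* and *Rad21l* together made up 67.7, 54.1 and 62.9% of kleisin FPKM in control and 52.3, 65.4 and 54.0% in cKO libraries, and these shares overlapped (exact two-sided permutation test, p = 0.5). *Rec8* alone, a share computed after the values had been seen and from a gene already called, made up 16.1, 16.6 and 13.3% in control against 9.0, 8.04 and 10.7% in cKO libraries. All 3 cKO libraries lay below all 3 controls (exact permutation p = 0.1, the smallest that 3 against 3 can give). The share of *Rad21l* was 37.4 to 51.6% in control and 43.3 to 57.3% in cKO libraries.

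STAG proteins bind the kleisin and help to load and place the ring, and STAG3 is the partner of the meiotic kleisins. *Stag3* had 171, 118 and 152 FPKM in control and 110.3, 127 and 105 FPKM in cKO libraries. Only control replicate 2 lay within the range of the cKO libraries (log2 fold change -0.35, SE 0.15, limma adjusted p = 0.11). Without that library, *Stag3* passed the threshold (log2 fold change -0.50, adjusted p = 0.017). It did not with any other library left out, and the log2 fold change was -0.23 without control replicate 1 (limma adjusted p = 0.29). Control replicate 2 held the lowest level of its group for 6 of the 9 members and over 3 times the spermatid marker sum of the other control libraries. Among the cKO libraries, replicate 3 was likewise lowest for 6 of the 9, with a spermatid marker sum of 6.46 FPKM, within the cKO range of 6.01 to 7.36 FPKM. Control replicate 1 was highest of its group for 7 of the 9, and cKO replicate 2 for 6 of the 9. The part of spermatid RNA in these differences was not tested.

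*Stag2*, the X-linked STAG of mitotic rings, was the member with the smallest spread among controls. It had 10.4, 10.5 and 10.9 FPKM in control and 13.8, 15.1 and 13.7 FPKM in cKO libraries, with no overlap. The log2 fold change was 0.39 (SE 0.076, limma adjusted p = 0.0078), a mean 34.2% above that of the controls, on 1326 to 1832 fragments per library. *Stag1*, its autosomal paralog, had 21.8, 19.0 and 20.8 FPKM in control and 21.8, 24.7 and 20.7 FPKM in cKO libraries and did not pass the test (log2 fold change 0.12, SE 0.092, limma adjusted p = 0.37, 95% interval -0.10 to 0.34). When each library was left out, the log2 fold change of *Stag1* ranged from 0.046 (without cKO replicate 2) to 0.17 (without cKO replicate 3). The X chromosome is silenced in pachytene spermatocytes, the stage whose markers were lower in the cKO libraries. Of 634 X-linked genes tested, 24.4% were called higher (median log2 fold change 0.20), against 1666 of 14817 other genes, and the part of X linkage in the rise of *Stag2* was not tested.

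Within the STAG pool, *Stag3* made up 84.1, 80.0 and 82.7% of FPKM in control and 75.6, 76.1 and 75.4% in cKO libraries. The shares did not overlap, with a difference of the means of -6.57 percentage points (exact permutation p = 0.1, the smallest possible, or 0.3 after Benjamini-Hochberg adjustment over the 3 positions). The difference stayed between -7.72 and -5.65 points when each library was left out in turn. Unlike the level of *Stag3*, its share separated the groups with control replicate 2 included. The pool also holds *Stag2*, already called higher, so the share of *Stag3* is not independent of that call.

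**Figure D2:**
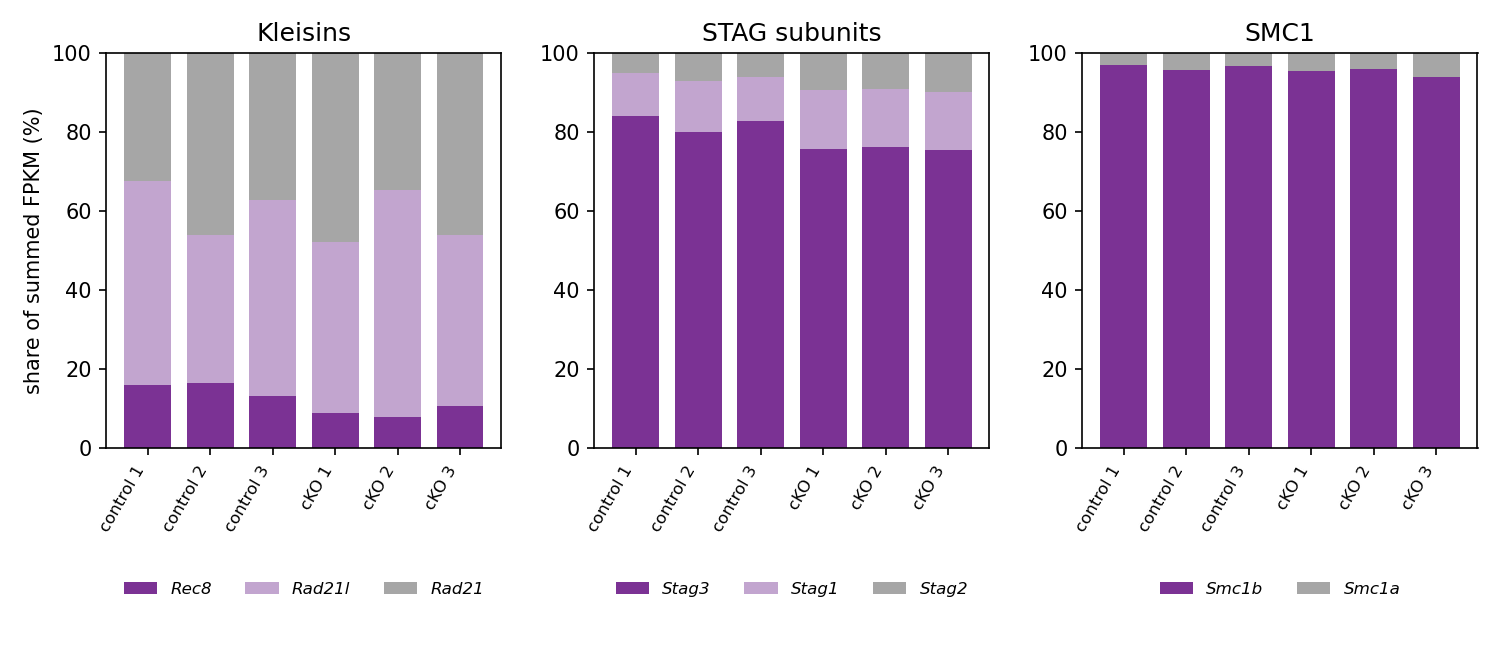
Share of summed FPKM (%) that each paralog takes in the kleisin, STAG and SMC1 pools, 1 bar per library. The *Rec8* segment shrinks from 13.3 to 16.6% in control to 8.04 to 10.7% in cKO libraries, the *Stag3* segment takes 80.0 to 84.1% in control and 75.4 to 76.1% in cKO libraries, and the *Smc1b* segment takes 94.0 to 96.9%.

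SMC1 and SMC3 form the arms and the hinge of the ring. *Smc1b* had 188, 116 and 174 FPKM in control and 141, 149 and 101 FPKM in cKO libraries. Control replicate 2 and cKO replicate 3 were below the other libraries of their groups, and the difference did not pass the test (log2 fold change -0.27, SE 0.22, limma adjusted p = 0.37, 95% interval -0.79 to 0.24). Single libraries set its size, with log2 fold changes of -0.48 without control replicate 2 (adjusted p = 0.083), -0.14 without control replicate 1 and -0.10 without cKO replicate 3. *Smc1a*, its X-linked mitotic paralog, had 6.09, 5.15 and 5.70 FPKM in control and 6.65, 6.49 and 6.42 FPKM in cKO libraries. All 3 cKO libraries were higher, by a margin too small for the test (log2 fold change 0.18, SE 0.093, limma adjusted p = 0.18), although quantile normalization called it. *Smc1b* made up 95.8 to 96.9% of SMC1 FPKM in control and 94.0 to 95.8% in cKO libraries, which overlapped (exact permutation p = 0.2).

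*Smc3* has no paralog in the ring. It had 83.0, 68.7 and 80.6 FPKM in control and 91.3, 119 and 90.5 FPKM in cKO libraries, on 5831 to 9633 fragments. No cKO library overlapped with a control, but the adjusted p was 0.071 in limma (log2 fold change 0.36, SE 0.13, 95% interval 0.06 to 0.67). It passed the threshold under 3 of the other scalings, 1 of them added after the data were seen, with log2 fold changes of 0.41 to 0.46, and did not under median-of-ratios scaling (0.36, adjusted p = 0.071). Without cKO replicate 2, the highest library, the log2 fold change was 0.23 (adjusted p = 0.13).

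Because each ring holds 1 SMC3, the summed level at the other positions was set against *Smc3* in each library. These are ratios of RNA, and the protein make-up of the rings was not measured. The kleisins had 1.71, 1.86 and 1.68 times the FPKM of *Smc3* in control and 1.55, 1.36 and 1.58 times in cKO libraries. The ratio for the STAG subunits was 2.45, 2.14 and 2.28 in control against 1.60, 1.40 and 1.54 in cKO libraries, and that for SMC1 was 2.34, 1.77 and 2.23 against 1.62, 1.31 and 1.19. At all 3 positions the groups did not overlap, with an exact permutation p = 0.1 for each, the smallest possible, and 0.1 after adjustment over the 3. The sums themselves overlapped between the groups. Those of the kleisins were 141.7, 128 and 135 FPKM in control and 141.4, 162 and 143 FPKM in cKO libraries, so that the mean sum was not lower in cKO and the lower kleisin ratio came with the higher values of *Smc3*. The STAG sums were 147 to 203 FPKM in control and 140 to 167 FPKM in cKO libraries, and the SMC1 sums 122 to 194 and 108 to 156 FPKM. The ratios share *Smc3* as their denominator and are therefore not independent of each other or of its own level. The 4 mitotic partners of *Smc3* (*Rad21*, *Stag1*, *Stag2*, *Smc1a*) summed to 84.1, 93.4 and 87.5 FPKM in control and 109.6, 102 and 107 FPKM in cKO libraries, without overlap (exact permutation p = 0.1, the smallest possible). This sum holds *Stag2*, already called higher, and *Rad21* as its largest part. Of all genes taken singly, 50.4% did not overlap between the groups either. The 4 meiosis-specific members summed to 454, 303 and 411 FPKM in control and 326, 382 and 284 FPKM in cKO libraries, which overlapped (exact permutation p = 0.3). The mitotic and the meiosis-specific sum were not among the planned comparisons.

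**Figure D3:**
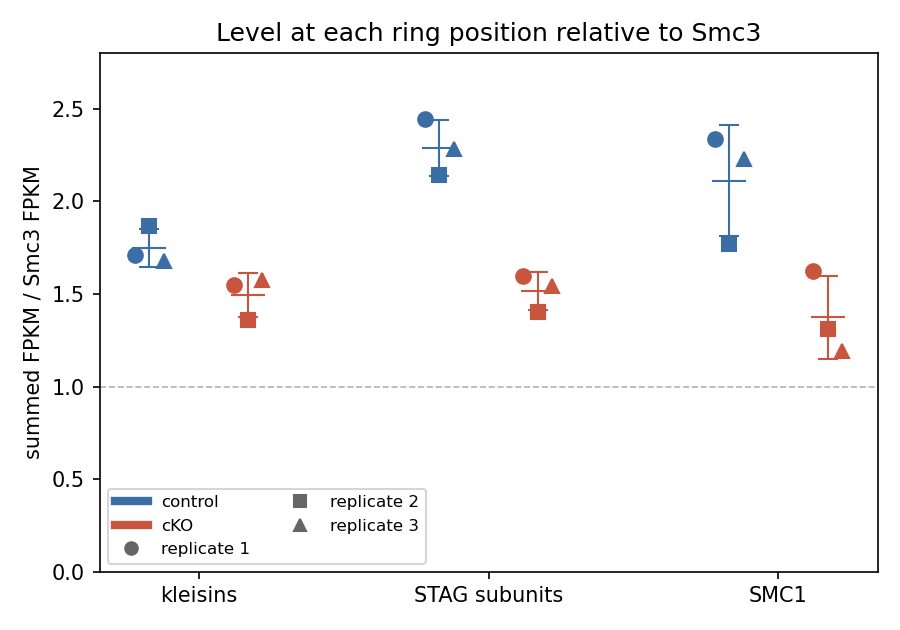
Summed FPKM of the kleisins, STAG subunits and SMC1 genes divided by the FPKM of *Smc3* in each library (symbols as replicate number, bars as mean ± SD of 3 libraries, dashed line at a ratio of 1). Every cKO library lies below every control library at each position, with means of 1.75 and 1.5 for the kleisins, 2.29 and 1.52 for the STAG subunits and 2.11 and 1.37 for SMC1.

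The 17 regulators listed are genes that load, lock, protect or remove cohesin, together with *Ctcf* and *Ctcfl*. Of these, 16 were tested, and 4 rose and 2 fell in the cKO cells, against the same 11.8% and 22.2% over all genes. *Sgo2b*, with at most 3 fragments in any library, was not tested. *Meikin*, a meiosis-specific kinetochore protein that helps to protect REC8 at the first division, had 5.30, 5.27 and 3.60 FPKM in control and 0.668, 1.39 and 1.51 FPKM in cKO libraries (log2 fold change -1.39, SE 0.21, limma adjusted p = 0.0025). *Pttg1*, which encodes securin, the inhibitor of the protease that opens the ring, had 16.4, 13.8 and 15.6 FPKM in control and 11.04, 7.68 and 9.31 FPKM in cKO libraries (log2 fold change -0.66, SE 0.13, limma adjusted p = 0.0094). No cKO library of either gene overlapped with a control, and both kept their calls in every alternative in which they were tested.

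The 4 rises were smaller. *Pds5a*, a regulator of ring release, went from 11.3 ± 0.836 to 14.9 ± 1.64 FPKM (SD, n = 3), *Sgo1*, a shugoshin that shields centromeric cohesin, from 6.73 ± 0.203 to 8.49 ± 0.303, *Ctcf*, the zinc finger protein at which rings halt on chromatin, from 20.7 ± 0.805 to 24.5 ± 0.288, and its testis paralog *Ctcfl* from 9.84 ± 1.47 to 13.8 ± 1.58. Their log2 fold changes were 0.24 to 0.46, with limma adjusted p from 0.028 to 0.034. With any single library left out, whether control replicate 1, 2 or 3 or cKO replicate 1, 2 or 3, at most 1 of the 4 still passed. The remaining 10 did not pass, among them the 3 with the highest levels. *Nipbl*, the cohesin loader, had 46.9 ± 9.99 FPKM in control and 40.1 ± 5.71 in cKO libraries, *Wapl*, the release factor, 47.2 ± 3.84 and 54.0 ± 5.55, and *Esco2*, which acetylates SMC3, 48.5 ± 5.81 and 60.7 ± 9.46.

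**Figure D4:**
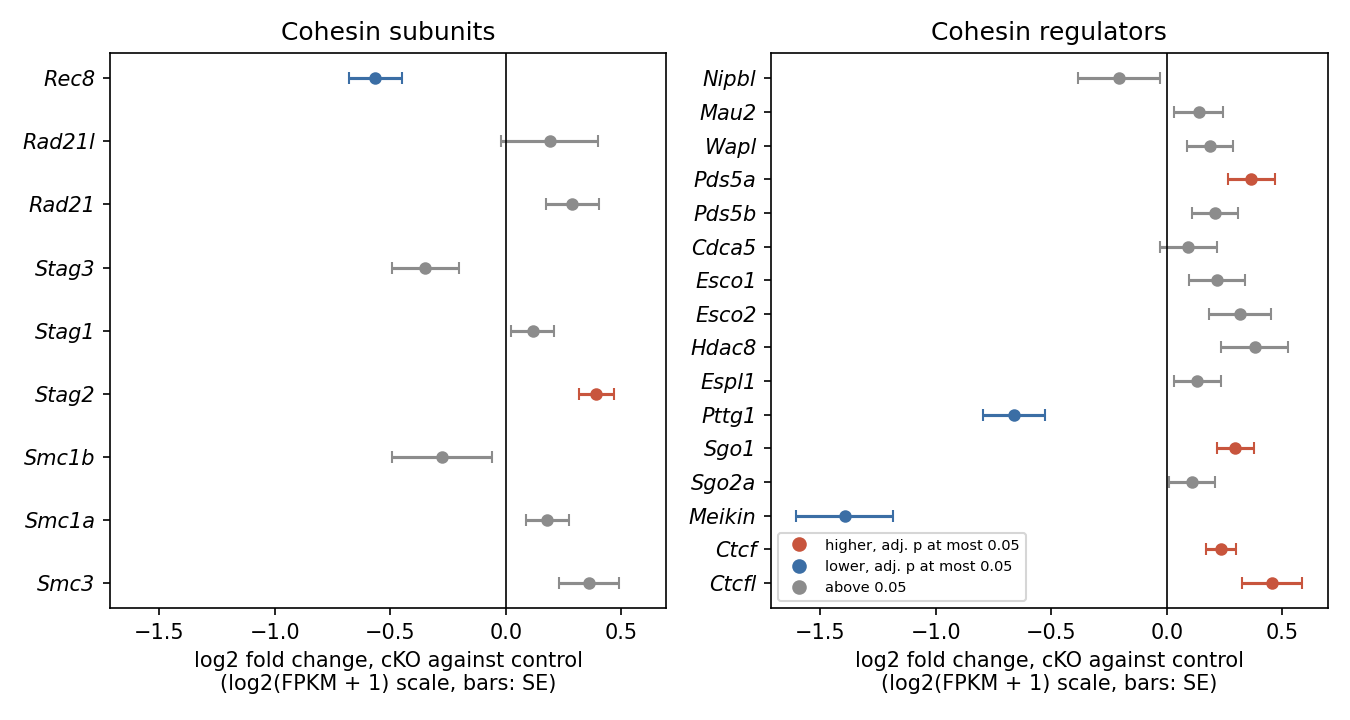
Log2 fold change of cKO against control on the log2(FPKM + 1) scale for the 9 subunits and the 16 regulators tested, with the SE as bars, genes called higher in red, called lower in blue and not called in grey. *Rec8* at -0.56 and *Stag2* at 0.39 are the subunits past the threshold, and *Meikin* at -1.39 lies farthest from 0.

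In the neighbouring complexes, the counts are to be read against the same 11.8% of all genes called higher and 22.2% called lower. Of 17 condensin and SMC5/6 genes, 1 was called higher (*Smc2*) and 3 lower (*Ncapg*, *Nsmce1*, *Eid3*), and of 11 synaptonemal complex and HORMA genes, 1 higher (*Trip13*) and 1 lower (*Syce2*), named here after their values had been seen, with median log2 fold changes of -0.075 and 0.051. No difference between these lists and cohesin was tested.

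The genes whose pattern was nearest to each meiosis-specific member were taken by the distance between their deviations from their own mean log2(FPKM + 1) over the 6 libraries, compared over 8207 protein-coding genes whose mean was 5 FPKM or more. The nearest to *Rec8* were *Haus1* (distance 0.11), *Coprs* (0.12) and *Hemk1* (0.13), and *Haus1* had 49.6 to 62.4 FPKM in control and 36.7 to 42.9 FPKM in cKO libraries. The nearest to *Stag3* were *Phtf1* (0.079), *Xpo6* (0.095) and *Pja2* (0.10), and to *Rad21l* *Ppfibp1* (0.14), *Pparg* (0.15) and *Arhgap12* (0.15). *Smc1b* had *Nipbl* (0.25), *Gm10644* (0.26) and *Pigu* (0.28) as its nearest genes, at a greater distance than for the other 3 members. With 6 libraries in 2 groups these distances are a description only.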

How the data were processed

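RNA-seq of STRA8+ cells was available as 1 table of FPKM, which the authors deposited for 54532 genes with a column per library and a gene length. Per the labels, the submitters' processing notes name HISAT2 (version 2.0.5) and mm10, and the counting tool is not given in the sources used here. The product of FPKM and gene length was, within each library, an integer number of equal steps (100% of values within 0.01 of a whole number, for values under 5000 fragments), so that fragments per gene were recovered. The denominator of the deposited FPKM was 0.971 to 1.05 times the sum of these fragments.

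Log2(FPKM + 1) was computed for the 15451 genes whose mean was 1 FPKM or more, and cKO was compared with control by limma (version 3.58.1, R version 4.3.3, eBayes with trend) with Benjamini-Hochberg adjustment over all genes. A fold change on this scale understates that of low genes. Shares and ratios were compared by exact two-sided permutation tests. In simulated data for this comparison over 15451 genes, limma recovered 90.0% of the genes changed by 1 and 100% of those changed by 2 on the log2 scale. Only genes with enough fragments were changed there, and all genes were drawn with the same setting for the spread between libraries. Changes as small as those of the members were not simulated, so these shares do not give the power for them.

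The members and gene lists were chosen with earlier results of these data known. Genes named were all members, the regulators past the threshold, the 3 regulators with the highest mean, *Srsf1* and *Stra8*, and the 3 genes nearest in pattern to each meiosis-specific member. Other genes (*Ddx4*, *Sgo2b*, *Rhox5*, *Dmrtb1*, *Spo11*, *Mei1*, *Id4*, *Ret*, *Smc2*, *Ncapg*, *Nsmce1*, *Eid3*, *Trip13* and *Syce2*) were named outside this rule, after their values had been seen. Same-numbered libraries were not treated as paired in the main fit. Alternatives were another pseudocount, filters, scalings, limma without trend, limma-voom on the fragments, a replicate block and leaving out each library. Added after the data were seen were scaling by the sum of fragments and lengths of the longest coding transcript. Annotation was from GENCODE M21, and windows at start sites from RefSeq (GRCm38.p6), matched for 7 of 9 members by symbol. Protein sequences were not used here.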

Additional observations from a re-analysis of the deposited data

How the results depend on the processing

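*Rec8* was called lower and *Stag2* higher in all 16 alternatives (log2 fold changes -0.66 to -0.42 and 0.35 to 0.58). Of the 9 subunits, 4 were higher under quantile normalization, 3 after rescaling to a fixed sum of FPKM and 2 after scaling by the sum of fragments, which was added after the data were seen, and 1 to 2 were higher and 1 to 2 lower when each library was left out. *Rad21l* turned from 0.19 to -0.0042 without cKO replicate 2 (range over the libraries left out -0.0042 to 0.31). Of the regulators, 2 were higher without a filter, 9 under quantile normalization and 0 to 1 when libraries were left out, and 1 was lower with a mean of at least 5 FPKM, since *Meikin* is then not tested. At an unadjusted p under 0.05, limma had 4 to 6 regulators higher in these smaller sets, and limma-voom on all libraries called 5. Over all genes, 5164 were higher under quantile normalization, 969 to 1767 when libraries were left out, and 1950 were lower with a mean of at least 5 FPKM, where 8929 genes were tested. Other causes were not tested.

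The replicate numbers are shared by the groups, and the labels do not say whether they pair the libraries. Deviations of same-numbered libraries from their group means correlated at -0.001, -0.11 and 0.016, and 1 of 6 libraries correlated best with its own number. With 3 libraries per group, these correlations are too few to decide whether the libraries are paired. With the replicate number as a block, 891 genes were higher and 2870 lower, 0 regulators were higher (4 at an unadjusted p under 0.05), and *Rec8* (limma adjusted p = 0.041) and *Stag2* (0.046) kept their calls. For shares and ratios the block allows no p below 0.25 (exact sign-flip test). Depth was between 455 and 16118 fragments per member and library, lowest for *Smc1a*.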
